A study of Mus musculus with 4 samples.

Results

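The regenerative, fetal-like and YAP target genes described here are 43 listed genes, of which 6 encode YAP, TAZ and the TEAD factors, 8 are widely used YAP targets and 29 are other genes of injured or fetal-like epithelium. They were found by Entrez gene identifier among the 18872 genes listed in at least 1 library, where 42 were listed. Ctgf and Cyr61 of the list are the older names of Ccn2 and Ccn1. When the colon lining is damaged, the surviving epithelium takes on a repair state that resembles fetal gut, with annexins, clusterin and matrix genes switched on. YAP and its paralog TAZ are transcriptional coactivators held in check by the Hippo kinases. When active they enter the nucleus, join the DNA-binding TEAD factors, and induce targets such as Ccn1 and Ccn2. YAP activity is known to be needed for regeneration of the gut epithelium after injury.

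The libraries are RNA-seq of colon epithelial cells from mice treated with dextran sulfate sodium (DSS), a detergent-like polysaccharide that injures the colon, at 2% for 3 days. The knockout group, genotype EZH2-IEC-/-, lacks Ezh2, the methyltransferase of Polycomb repressive complex PRC2, in intestinal epithelial cells and has 2 libraries. Its control, genotype wild type, received the same DSS and also has 2 libraries. Both groups share the injury, and untreated mice were not analysed here. Every comparison is therefore one of genotypes within injured colon, and none measures the response to injury itself. Strain, age, the driver of the deletion and the number of mice in a library are not stated in the labels. Because separate mice are not named for the libraries of a group, a p-value reflects only how far these libraries differ, and that spread may be technical.

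Estimated counts summed to between 5037367 and 5446998 per library. Ezh2 stood at 5.94 and 5.69 FPKM (fragments per kilobase of transcript, scaled to the library total) in knockout libraries and at 7.79 and 7.28 FPKM in wild-type libraries, a difference that did not pass the test (log2 fold change -0.27 ± 0.17, adjusted p = 0.217). The removed exons are not named in the labels, and reads summed over all exons are no check of the deletion. The labelled cell type, colon epithelium, was checked on 8 markers, of which 6 were higher and 2 lower in knockout and none was at 0. The lower markers were Epcam and Cdh1, with log2 fold changes of -0.27 ± 0.08 and -0.60 ± 0.07. The 8 markers summed to 10161 and 10539 FPKM in knockout and 8714 and 9048 FPKM in wild type. Most of each sum came from Krt8 and Krt19, which were higher in knockout. Markers of other cell types were detected too. Of 10 fibroblast and smooth muscle markers, 1 was higher and 8 lower in knockout. Their summed level was 1137 and 1442 FPKM in knockout against 2390 and 2588 FPKM in wild type. Most of each sum came from the smooth muscle genes Acta2, Tagln, Myh11 and Des, with log2 fold changes of -1.02, -1.02, -1.06 and -0.89. Those of Col1a2, Dcn, Pdgfra and Col3a1 were -0.67, -0.48, -0.40 and -0.33. Col1a1 did not pass, and Vim was the higher marker. No marker of these lists or of the leukocyte lists was at 0 in either group. Of 4 neutrophil markers 3 were higher and 0 lower, of 5 T and NK cell markers 5 and 0, and of 6 macrophage markers 4 and 0. All marker counts stand beside 23.0% of all 13608 genes tested called higher and 20.8% called lower in knockout. The macrophage count was 2 without knockout replicate 2, 2 without wild-type replicate 1 and 2 with DESeq2. Neutrophil markers summed to 155 and 132 FPKM in knockout against 6.95 and 10.3 FPKM in wild type. Most of the knockout sum came from S100a8, at 98.01 and 89.55 FPKM, and S100a9, at 51.53 and 32.35 FPKM. Csf3r was at 1.77 and 2.22 FPKM in knockout and 0.86 and 0.72 FPKM in wild type. Cxcr2 overlapped, at 4.08 and 7.58 FPKM in knockout and 3.67 and 5.84 FPKM in wild type. T and NK cell markers summed to 42.3 and 41.7 FPKM in knockout against 5.21 and 4.45 FPKM in wild type. Macrophage markers summed to 159 and 179 FPKM in knockout against 104 and 110.2 FPKM in wild type. Fewer cells of a type and less RNA per cell cannot be told apart in these data.

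Members of the list moved in both directions. Of 43 genes, 39 had enough counts to be tested, and 12 of these were higher and 11 lower in knockout at an adjusted p under 0.05 (edgeR's quasi-likelihood test, Benjamini-Hochberg over 13608 genes). Among all genes tested, 23.0% were called higher and 20.8% lower, beside 30.8% and 28.2% of the tested members. In either direction 43.7% of genes were called. The median log2 fold change, knockout minus wild type, was 0.06 over the members and -0.002 over all genes. FPKM values of the groups did not overlap for 16 members that were higher and 17 that were lower, where 30.4% and 42.5% of all genes did so. Of the called members, 9 rose and 2 fell by at least 1 on the log2 scale, beside 6.90% and 8.02% of all genes. The higher count was 12 to 14 with any library left out. The lower count was 9 without either knockout library, but 6 without wild-type replicate 1, 6 without wild-type replicate 2 and 6 with DESeq2. With library totals alone in place of edgeR's TMM factors the counts were 12 and 13.

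**Figure D1:**
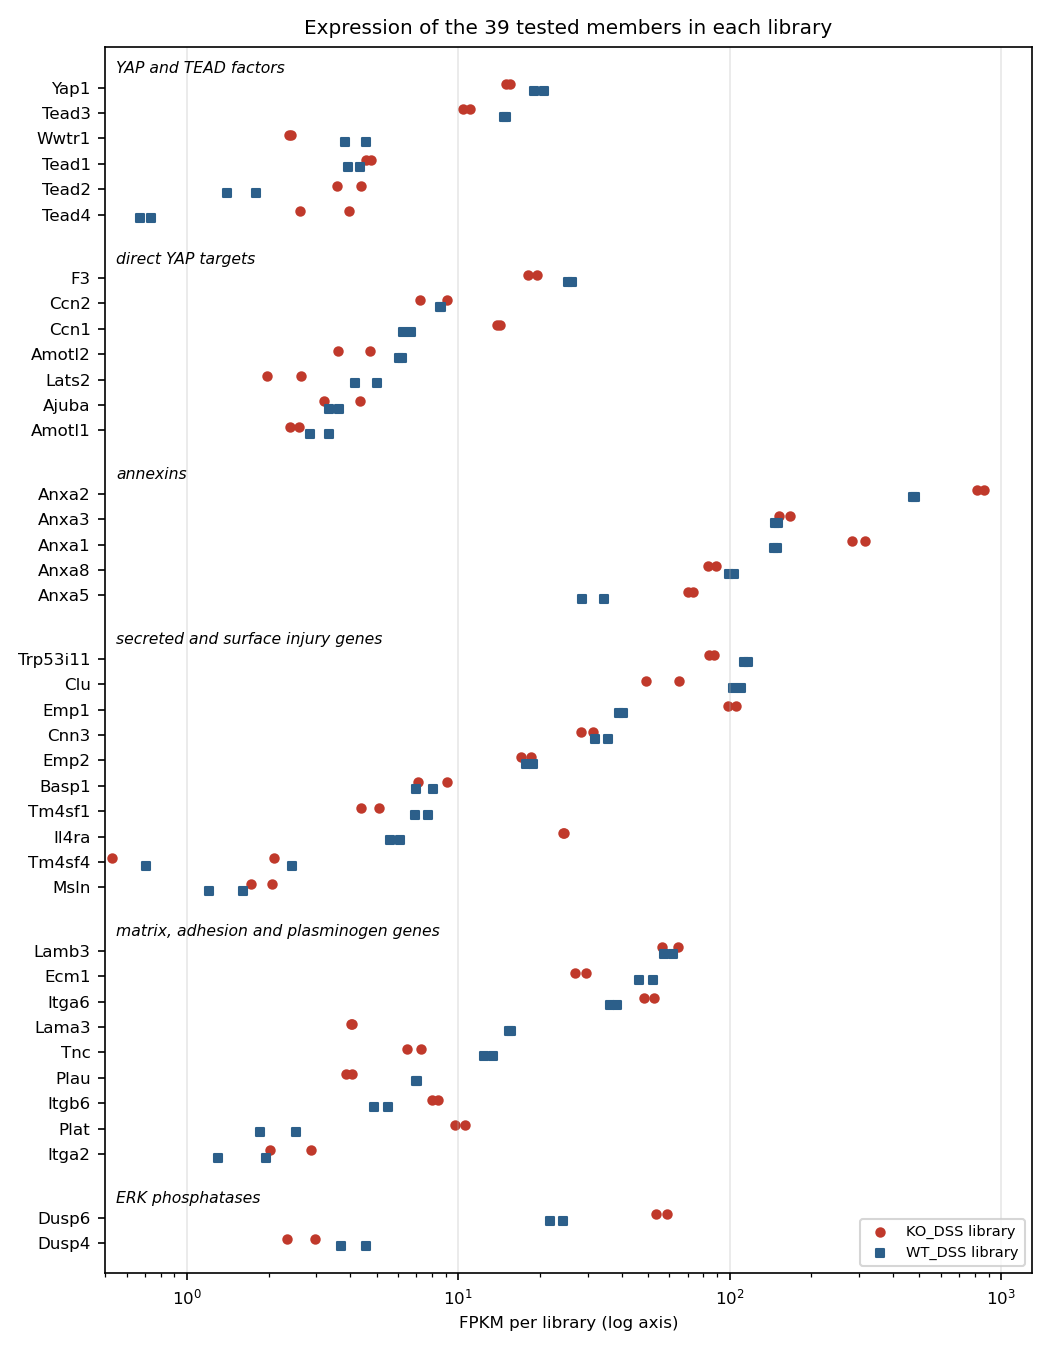
FPKM on a log axis for the 39 tested members (rows, grouped by role), with the 2 KO_DSS libraries as circles above the 2 WT_DSS libraries as squares. Levels run from Tm4sf4, at 0.53 to 2.44 FPKM, to Anxa2, at 817 and 863 FPKM in knockout.

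The coactivator genes were called lower in knockout, though neither call held in every refit, and the TEAD factors split. Yap1, which encodes YAP, had 15.5 and 14.9 FPKM in knockout libraries and 20.7 and 18.9 FPKM in wild-type libraries, without overlap (log2 fold change -0.28 ± 0.10, adjusted p = 0.0431). Wwtr1, which encodes TAZ, had 2.42 and 2.37 FPKM in knockout and 4.58 and 3.84 FPKM in wild type (log2 fold change -0.71 ± 0.19, adjusted p = 0.0131). Both differences were called, but Yap1 did not pass with any 1 library left out (adjusted p = 0.0698 to 0.253) or with DESeq2 (adjusted p = 0.18). Leaving out wild-type replicate 1 raised the adjusted p of Wwtr1 to 0.096, and DESeq2 gave 0.0631. Wwtr1 is also expressed by stromal cells, whose markers were lower in knockout as given above, and their part in its value was not tested.

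Of the 4 TEAD genes, whose proteins carry the DNA-binding part of the complex, Tead4 and Tead2 rose. Tead4 was at 3.96 and 2.61 FPKM in knockout and 0.67 and 0.74 FPKM in wild type, a 4.85-fold difference (log2 fold change 2.28 ± 0.34, adjusted p = 0.00075). Tead2 was at 4.37 and 3.56 FPKM in knockout and 1.41 and 1.80 FPKM in wild type (log2 fold change 1.40 ± 0.30, adjusted p = 0.00525). Neither pair of groups overlapped, and both calls held with each library left out. Tead3 had 10.43 and 11.02 FPKM in knockout and 14.7 and 15.1 FPKM in wild type (log2 fold change -0.38 ± 0.12, adjusted p = 0.0324). That call was lost with any 1 library left out (adjusted p = 0.0599 to 0.112) and with DESeq2 (0.179). Tead1 had 4.57 and 4.79 FPKM in knockout and 3.91 and 4.35 FPKM in wild type and did not pass (log2 fold change 0.29 ± 0.12, adjusted p = 0.0712). Tead3 had the highest FPKM of the TEAD genes in every library, and Tead4 had the lowest in every library of both groups. Summed over the 6 factor genes, the level was 41.2 and 39.3 FPKM in knockout and 45.9 and 44.7 FPKM in wild type.

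TEAD factors bind the core GGAATG, which reads CATTCC on the other strand. It was searched on both strands of RefSeq promoters (GRCm38.p6, 250 bases before to 50 after the transcription start), which were found for 31 of the 43 members. At least 1 promoter held the core in 5 of 7 direct targets (71.4%), in 3 of 4 factor genes (75%) and in 2 of 20 other injury genes (10%). The same was true of 14.5% of 10807 expression-tested genes with a promoter and of 14.7% of all 32851 promoters. Genes with several promoters have more chances to hold the core. No promoter was found for the direct target Ccn2 or for the factor genes Tead1 and Tead4. Direct targets were chosen as widely used YAP targets, so their share is description only. The promoters of 5 direct targets and of Anxa1, an injury gene that rose, are printed 5′ to 3′ on the strand of the gene, with the core in capitals. Ccn1 (chr3:145649936-145650235, minus strand) rose in knockout, Lats2 (chr14:57746074-57746373, minus strand) fell, Amotl2 (chr9:102717554-102717853, plus strand) and Ajuba (chr14:54577612-54577911, minus strand) did not pass, and Ankrd1 (chr19:36119795-36120094, minus strand) had too few counts. Anxa1 lies at chr19:20390622-20390921, minus strand. A match is a description of these letters and does not show binding.
Ccn1: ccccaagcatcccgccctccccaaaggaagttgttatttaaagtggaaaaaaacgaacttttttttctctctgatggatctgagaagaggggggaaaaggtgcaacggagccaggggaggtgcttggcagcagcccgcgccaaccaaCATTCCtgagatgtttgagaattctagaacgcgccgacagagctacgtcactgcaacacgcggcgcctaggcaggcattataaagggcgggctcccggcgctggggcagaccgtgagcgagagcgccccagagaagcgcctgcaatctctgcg
Amotl2: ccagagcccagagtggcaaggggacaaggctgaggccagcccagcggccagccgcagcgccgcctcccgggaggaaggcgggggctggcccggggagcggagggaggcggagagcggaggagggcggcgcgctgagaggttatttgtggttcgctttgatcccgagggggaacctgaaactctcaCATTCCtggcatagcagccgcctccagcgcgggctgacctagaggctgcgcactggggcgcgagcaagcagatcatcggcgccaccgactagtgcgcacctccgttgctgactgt
Ajuba: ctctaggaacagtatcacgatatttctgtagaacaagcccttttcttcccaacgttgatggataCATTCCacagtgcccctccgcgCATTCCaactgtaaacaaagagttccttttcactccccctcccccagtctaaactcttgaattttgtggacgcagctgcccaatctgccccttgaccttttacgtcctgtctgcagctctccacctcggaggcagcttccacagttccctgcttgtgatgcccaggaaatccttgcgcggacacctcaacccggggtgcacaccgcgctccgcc
Lats2: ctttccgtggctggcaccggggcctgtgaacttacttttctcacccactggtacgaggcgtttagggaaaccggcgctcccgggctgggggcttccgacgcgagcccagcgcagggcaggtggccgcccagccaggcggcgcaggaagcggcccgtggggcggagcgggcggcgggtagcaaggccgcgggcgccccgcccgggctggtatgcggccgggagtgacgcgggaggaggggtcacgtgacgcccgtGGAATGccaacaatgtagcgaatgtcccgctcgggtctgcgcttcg
Ankrd1: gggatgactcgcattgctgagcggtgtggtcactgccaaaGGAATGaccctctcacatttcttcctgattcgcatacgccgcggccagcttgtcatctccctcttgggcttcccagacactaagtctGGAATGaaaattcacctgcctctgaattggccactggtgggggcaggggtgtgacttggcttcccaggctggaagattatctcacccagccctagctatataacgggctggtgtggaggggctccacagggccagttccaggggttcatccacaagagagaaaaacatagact
Anxa1: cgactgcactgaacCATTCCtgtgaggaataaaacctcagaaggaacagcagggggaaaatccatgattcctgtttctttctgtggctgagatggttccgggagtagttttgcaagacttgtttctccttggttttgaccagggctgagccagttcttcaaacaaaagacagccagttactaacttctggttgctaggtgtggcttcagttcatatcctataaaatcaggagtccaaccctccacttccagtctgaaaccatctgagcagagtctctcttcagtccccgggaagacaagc
Counted in bases from the transcription start, the core begins at -103 in Ccn1 and at -65 in Amotl2. Ajuba holds it at -186 and -164, and Ankrd1 at -210 and -123. The Lats2 match begins at 5, within the transcript, and the Anxa1 match at -236. The printed promoters of Ccn1, Lats2 and Amotl2 thus each hold 1 core, while their log2 fold changes were 1.22, -1.04 and -0.46.

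**Figure D2:**
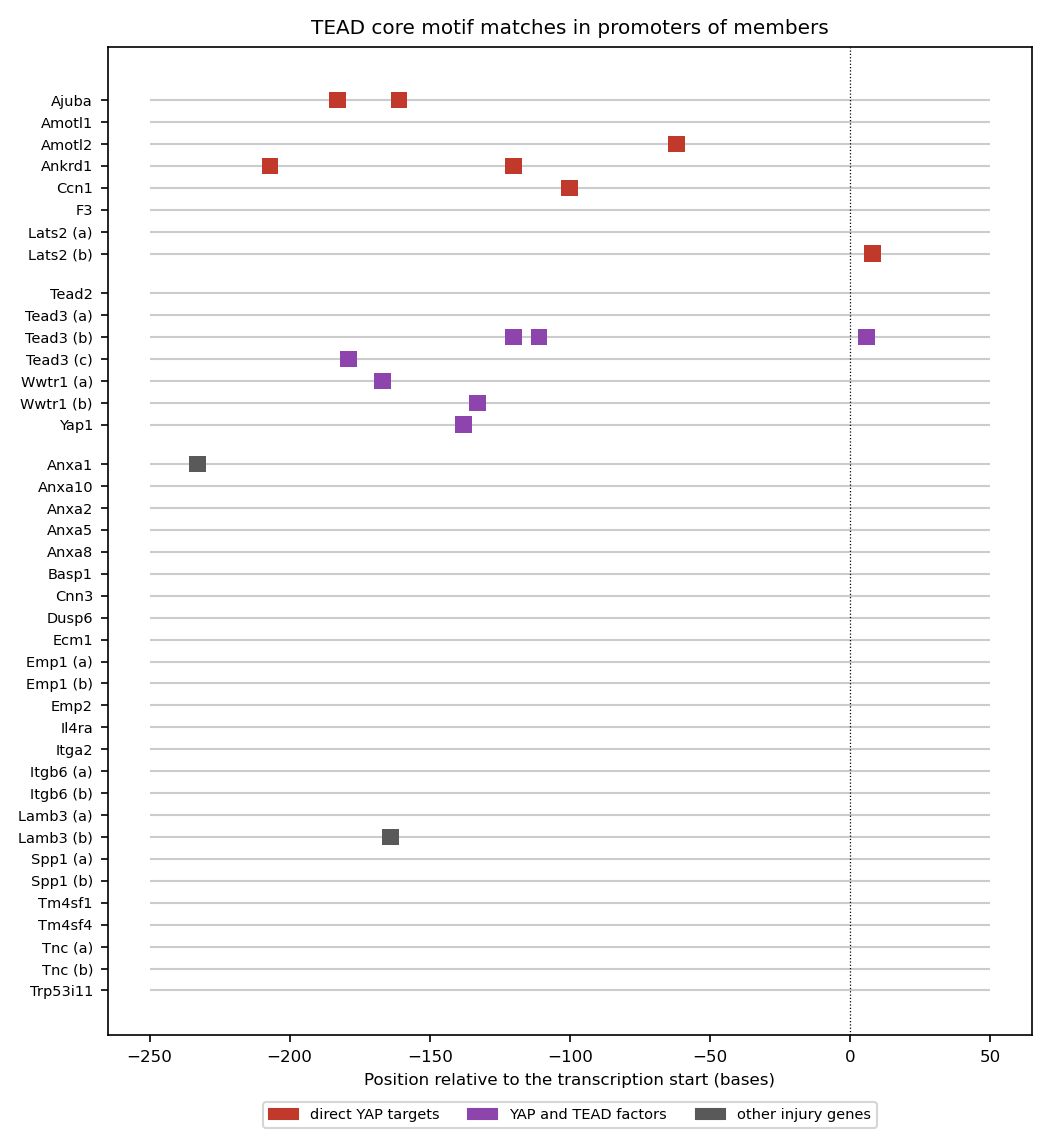
Position of each TEAD core match (blocks) along the RefSeq promoters of members, in bases from the transcription start (dotted line). Letters a to c mark several promoters of a gene in order of coordinate. Direct targets (top) and factor genes (middle) hold most matches, in 5 of 7 and 3 of 4 genes, against 2 of 20 other injury genes (bottom).

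The direct YAP targets did not move together. Of 8 listed, 7 were tested, 1 rose and 2 fell, beside 23.0% and 20.8% of all genes, with a median log2 fold change of -0.21. Ccn1, a secreted matrix protein that is also an immediate-early gene, was at 13.9 and 14.2 FPKM in knockout and 6.27 and 6.68 FPKM in wild type, 2.32-fold higher and without overlap (log2 fold change 1.22 ± 0.15, adjusted p = 0.000295). Its closest relative on the list, Ccn2, a connective tissue growth factor, was at 7.25 and 9.07 FPKM in knockout and 8.6 and 8.66 FPKM in wild type. Those groups overlapped, with a log2 fold change of 0.02 ± 0.17 (adjusted p = 0.929). Of 10 immediate-early and tissue handling markers, 7 rose and 1, Fos, fell, beside 23.0% and 20.8% of all genes. These markers summed to 451 and 488 FPKM in knockout and 391 and 417 FPKM in wild type. Their part in the Ccn1 value was not tested.

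Of the 4 targets whose proteins act back on the pathway, 1 fell and 3 did not pass, beside 20.8% of all genes called lower. Lats2, a Hippo kinase that phosphorylates YAP and is induced by it, had 2.64 and 1.98 FPKM in knockout and 5.01 and 4.17 FPKM in wild type, 2.06-fold lower (log2 fold change -1.04 ± 0.19, adjusted p = 0.00223). This call held with each library left out. The angiomotin-like scaffolds, which retain YAP at junctions, lay on the same side without passing. Amotl2 had 3.59 and 4.72 FPKM in knockout and 6.05 and 6.18 FPKM in wild type (log2 fold change -0.46 ± 0.17, adjusted p = 0.0601). It passed without knockout replicate 2 (-0.66, adjusted p = 0.016) and with library totals alone (-0.56, adjusted p = 0.0283). Amotl1 had 2.39 and 2.59 FPKM in knockout and 2.85 and 3.34 FPKM in wild type (log2 fold change -0.21 ± 0.15, adjusted p = 0.278). Ajuba, a LIM protein that inhibits the LATS kinases, overlapped between groups, at 4.35 and 3.19 FPKM in knockout and 3.63 and 3.34 FPKM in wild type.

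F3, tissue factor, which starts blood coagulation, was the most abundant direct target. It had 19.6 and 18.1 FPKM in knockout and 25.3 and 26.2 FPKM in wild type (log2 fold change -0.35 ± 0.12, adjusted p = 0.037). The call was lost without knockout replicate 2 (adjusted p = 0.121), without wild-type replicate 1 (0.0861), without wild-type replicate 2 (0.148) and with DESeq2 (0.178). Without either wild-type library, and with DESeq2, 1 direct target was called lower. Ankrd1, a nuclear ankyrin-repeat protein, was barely detected, with 1 and 10 counts in knockout libraries and 0 and 4 counts in wild-type libraries. The ratio of its summed counts, scaled to the library totals, was 2.6, with a 95% exact interval of 0.772 to 11.2 that covers counting error only. That interval includes 1, so no difference was detectable at this depth.

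Annexins, which bind membrane phospholipids in the presence of calcium, held most of the RNA of the whole list. Of 5 tested, 3 rose and 0 fell, beside 23.0% and 20.8% of all genes. Anxa2 was at 863 and 817 FPKM in knockout and 484 and 472 FPKM in wild type (log2 fold change 0.92 ± 0.07, adjusted p = 2.01e-05), at the 99.3 percentile of all listed genes by mean FPKM. Anxa1, which limits inflammation through formyl peptide receptors, was at 315 and 281 FPKM in knockout and 146 and 149 FPKM in wild type (log2 fold change 1.12 ± 0.09, adjusted p = 1.67e-05). Anxa5, the phosphatidylserine binder, was at 70.2 and 73.1 FPKM in knockout and 34.5 and 28.7 FPKM in wild type (log2 fold change 1.28 ± 0.11, adjusted p = 3.21e-05). The 3 rises kept apart from wild type in every library and were called with any library left out.

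Neither of the other measured annexins passed. Anxa3 was at 166 and 152 FPKM in knockout and 147 and 150.5 FPKM in wild type (log2 fold change 0.20 ± 0.09, adjusted p = 0.0911), and passed without knockout replicate 2 (0.27, adjusted p = 0.0286). Anxa8 was at 88.9 and 83.3 FPKM in knockout and 104 and 99.0 FPKM in wild type (log2 fold change -0.14 ± 0.09, adjusted p = 0.232). Anxa10 was listed in none of the libraries and was not tested. The annexin sum was 1503 and 1407 FPKM in knockout and 915 and 899.9 FPKM in wild type, out of 2152 and 2081 FPKM in knockout and 1578 and 1553 FPKM in wild type for all members. The S100 proteins that bind these annexins were higher as well. S100a10, which forms a tetramer with Anxa2, was at 772 and 800.5 FPKM in knockout and 474 and 507 FPKM in wild type (log2 fold change 0.78 ± 0.08). S100a11, a partner of Anxa1, was at 779 and 769.7 FPKM in knockout and 220.4 and 245 FPKM in wild type (log2 fold change 1.84 ± 0.09, adjusted p = 1.12e-06).

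Among secreted and surface genes of injured epithelium, Il4ra and Emp1 rose while Clu and Trp53i11 fell, and 6 of the 10 tested did not pass. The called shares, 20% higher and 20% lower, were near the 23.0% and 20.8% of all genes. Il4ra, the receptor chain shared by interleukins 4 and 13, was at 24.3 and 24.6 FPKM in knockout and 5.6 and 6.08 FPKM in wild type, 4.49-fold higher (log2 fold change 2.17 ± 0.10, adjusted p = 8.49e-07). Its groups were apart, and the call held with each library left out. Leukocytes also express Il4ra, T cell markers and a part of the macrophage markers were higher in knockout as given above, and their part in this value was not tested. Il13ra1, its partner in the type II receptor, was at 39.5 and 32.6 FPKM in knockout and 31.1 and 26.8 FPKM in wild type (log2 fold change 0.42 ± 0.12, adjusted p = 0.0186). Its call was lost without knockout replicate 1 (adjusted p = 0.087) and without wild-type replicate 2 (0.11. Stat6, the transcription factor downstream of that receptor, overlapped at 29.1 and 26.5 FPKM in knockout and 28.5 and 26.2 FPKM in wild type. Emp1, a tetraspan membrane protein of stratified and injured epithelium, was at 105 and 98.7 FPKM in knockout and 40.53 and 38.97 FPKM in wild type (log2 fold change 1.46 ± 0.09, adjusted p = 3.91e-06). Its paralog Emp2 overlapped, at 18.6 and 17.0 FPKM in knockout and 17.7 and 18.8 FPKM in wild type.

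Clu, the secreted chaperone clusterin that marks revival stem cells after damage in mouse gut, was lower. It was at 49.1 and 65.1 FPKM in knockout and 110.3 and 103 FPKM in wild type, 1.73-fold lower and without overlap (log2 fold change -0.79 ± 0.13, adjusted p = 0.00143). The call held with each library left out, with log2 fold changes of -1.01 to -0.60. Clu is also made by stromal cells, whose markers were lower in 8 of 10 cases as given above, and their part was not tested. Trp53i11, a p53-inducible gene, was at 87.3 and 83.8 FPKM in knockout and 113 and 117 FPKM in wild type (log2 fold change -0.32 ± 0.08, adjusted p = 0.0111, or 0.073 without wild-type replicate 2).

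The other secreted and surface members gave no call. Tm4sf1, a tetraspan protein of endothelium and tumours, was at 4.38 and 5.12 FPKM in knockout and 7.73 and 6.93 FPKM in wild type (log2 fold change -0.52 ± 0.21, adjusted p = 0.0758). It passed with limma on log2(FPKM + 1) (adjusted p = 0.0262). Of 5 endothelial markers 0 were higher and 3 lower, beside 23.0% and 20.8% of all genes, and none was at 0. They summed to 24.7 and 27.6 FPKM in knockout and 44.2 and 43.3 FPKM in wild type. Their part in the Tm4sf1 value was not tested. The endothelial count was 1 without wild-type replicate 1, 2 without knockout replicate 1, 2 without wild-type replicate 2, 2 with no filter on low counts and 2 with DESeq2. Cnn3, an actin-binding calponin, had a log2 fold change of -0.07 ± 0.11, Basp1, a membrane-bound signalling protein, 0.21 ± 0.20, and Msln, the mesothelial surface protein mesothelin, 0.53 ± 0.36. Msln had 20 and 24 counts in knockout and 13 and 18 counts in wild type, while the 4 mesothelial markers summed to at most 1.16 FPKM in any library. Tm4sf4 followed the replicate number and not the genotype, with 4 and 16 counts in knockout and 5 and 18 counts in wild type for replicates 1 and 2, and its log2 fold change ran from -1.45 to 0.97 as libraries were left out. Spp1, the secreted phosphoprotein osteopontin, had 2 and 4 counts in knockout and 1 and 0 counts in wild type. It had too few counts to be tested, and the 95% exact interval of its count ratio, 0.689 to 261, includes 1.

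**Figure D3:**
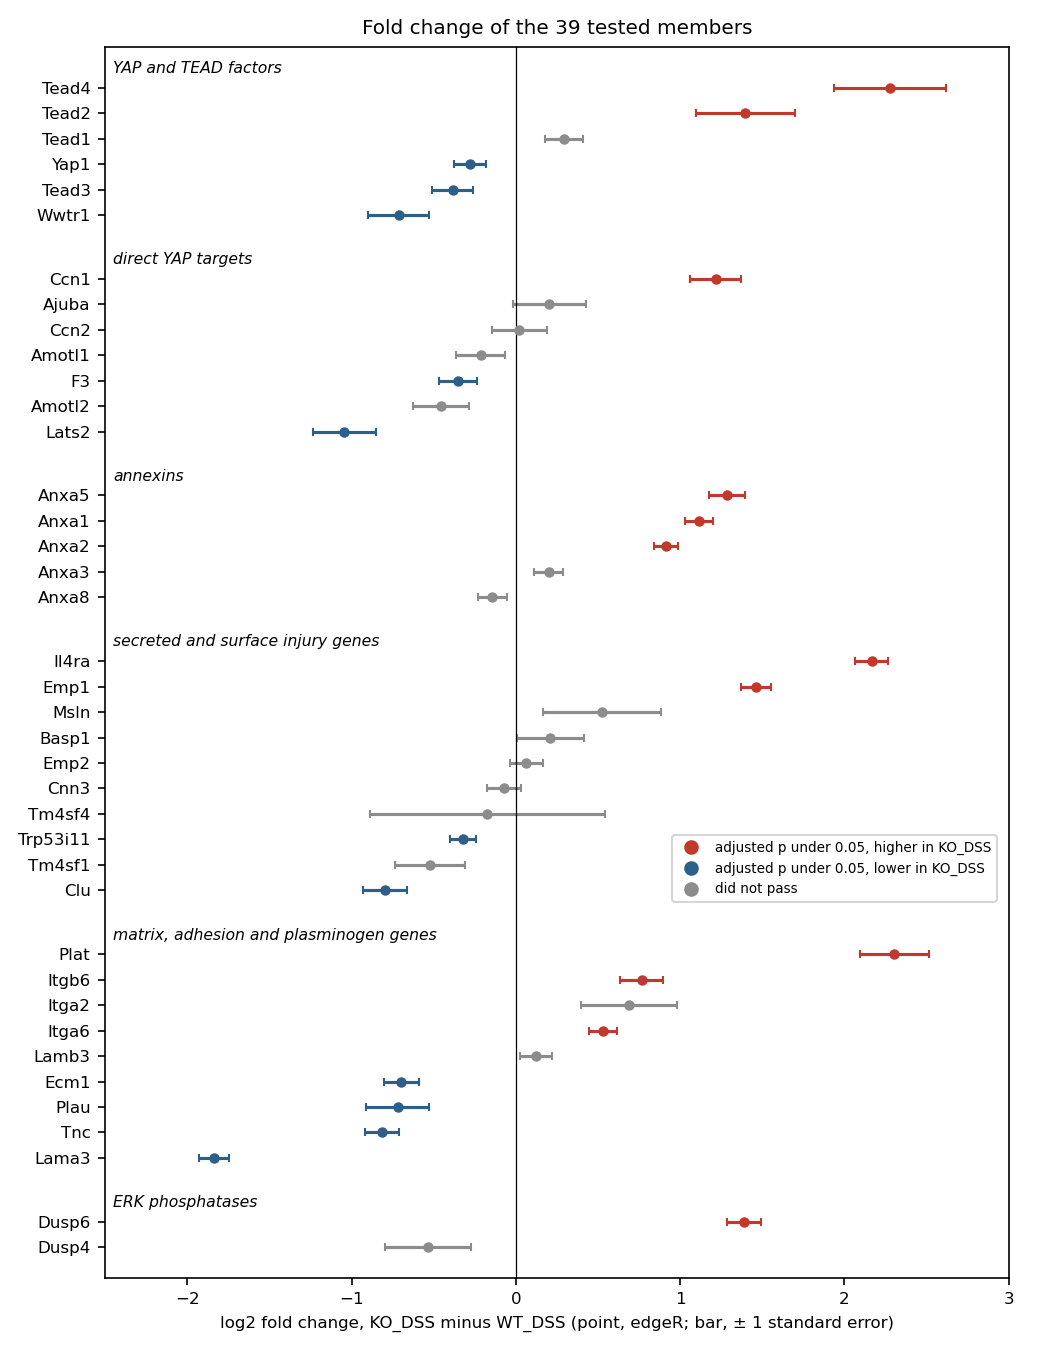
Log2 fold change of each tested member, KO_DSS minus WT_DSS, from edgeR, with bars of 1 standard error and rows grouped by role. Of 39 members, 12 lie to the right and 11 to the left with an adjusted p under 0.05, from Plat at 2.31 to Lama3 at -1.84.

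Of 9 matrix, adhesion and plasminogen genes, 3 rose and 4 fell, beside 23.0% and 20.8% of all genes, and 2 did not pass. Lama3 and Lamb3 encode chains of laminin-332, which anchors epithelium to its basement membrane. Lama3 was at 4.02 and 4.07 FPKM in knockout and 15.6 and 15.4 FPKM in wild type, 3.57-fold lower (log2 fold change -1.84 ± 0.09, adjusted p = 1.36e-06). Lamb3 overlapped, at 56.3 and 64.6 FPKM in knockout and 62.0 and 57.1 FPKM in wild type (log2 fold change 0.12 ± 0.10, adjusted p = 0.328). Lama3 was below Lamb3 in every library, and the Lama3 groups were apart while those of Lamb3 were not. The difference between the fold changes of both chains was not tested.

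Of the 3 integrin chains, 2 rose and 1 did not pass, beside 23.0% of all genes called higher and 20.8% called lower. Itga6, which with Itgb4 forms the laminin receptor of hemidesmosomes, was at 52.4 and 48.3 FPKM in knockout and 38.6 and 36.1 FPKM in wild type (log2 fold change 0.53 ± 0.09, adjusted p = 0.0012). Itgb6, the epithelial partner of the alpha v chain that activates TGF-beta, was at 8.03 and 8.42 FPKM in knockout and 4.88 and 5.49 FPKM in wild type (log2 fold change 0.77 ± 0.13, adjusted p = 0.00156). Both calls held with each library left out. Itga2, a collagen receptor chain, was at 2.86 and 2.02 FPKM in knockout and 1.95 and 1.30 FPKM in wild type (log2 fold change 0.69 ± 0.29, adjusted p = 0.0889) and passed without knockout replicate 2 (0.93, adjusted p = 0.0265). Itgb4 itself had a log2 fold change of 0.07 ± 0.09.

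The plasminogen activators split. Plat, the tissue-type activator that turns plasminogen into plasmin, was at 9.69 and 10.6 FPKM in knockout and 1.86 and 2.52 FPKM in wild type, 4.94-fold higher (log2 fold change 2.31 ± 0.21, adjusted p = 4.63e-05). Plau, the urokinase-type activator, was at 3.86 and 4.06 FPKM in knockout and 7.02 and 6.99 FPKM in wild type (log2 fold change -0.72 ± 0.19, adjusted p = 0.015). The Plau call was lost without wild-type replicate 1 (adjusted p = 0.0644), without wild-type replicate 2 (0.0647) and with DESeq2 (0.0905). Plaur, the urokinase receptor, was at 36.6 and 24.4 FPKM in knockout and 3.87 and 5.73 FPKM in wild type (log2 fold change 2.74 ± 0.24, adjusted p = 3.89e-05). Neutrophils and macrophages express Plaur, most neutrophil and a part of the macrophage markers were higher in knockout as given above, and their part was not tested.

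Both secreted matrix members outside the laminins fell. Tnc, the wound matrix protein tenascin C, was at 6.46 and 7.27 FPKM in knockout and 12.5 and 13.4 FPKM in wild type (log2 fold change -0.81 ± 0.10, adjusted p = 0.000301). Ecm1, an extracellular matrix protein, was at 26.9 and 29.7 FPKM in knockout and 46.2 and 52.3 FPKM in wild type (log2 fold change -0.70 ± 0.11, adjusted p = 0.000838). Neither overlapped, and each call held with each library left out. Fibroblasts and smooth muscle make Tnc, their markers were lower as given above, and their part in these values was not tested.

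Of the ERK phosphatases, 1 rose and 1 did not pass. Dusp6, a feedback phosphatase induced by ERK signalling, was at 53.4 and 58.9 FPKM in knockout and 24.2 and 21.8 FPKM in wild type (log2 fold change 1.39 ± 0.10, adjusted p = 1.29e-05). Dusp4, a nuclear relative, was at 2.96 and 2.34 FPKM in knockout and 4.57 and 3.69 FPKM in wild type (log2 fold change -0.53 ± 0.26, adjusted p = 0.13). Of 11 further ERK feedback and target genes, 6 rose and 2 fell, beside 23.0% and 20.8% of all genes, with a median log2 fold change of 0.65. The risers were 4 without wild-type replicate 2 and 4 with DESeq2. Phlda1, an ERK-induced pleckstrin-homology protein, was at 38.96 and 47.07 FPKM in knockout and 9.36 and 12.3 FPKM in wild type (log2 fold change 2.09 ± 0.15, adjusted p = 1.17e-05). The feedback inhibitors Spry4 and Dusp5, and Ier3, rose by 1.55, 1.37 and 1.39 on the log2 scale. The feedback inhibitors Spry1 and Spred2, named after their values were seen, fell by 1.19 and 0.61 on the log2 scale (adjusted p = 0.00477 and 0.00435). Spry2, the most abundant Sprouty gene here, had 12.0 and 12.5 FPKM in knockout and 15.6 and 14.7 FPKM in wild type and did not pass.

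**Figure D4:**
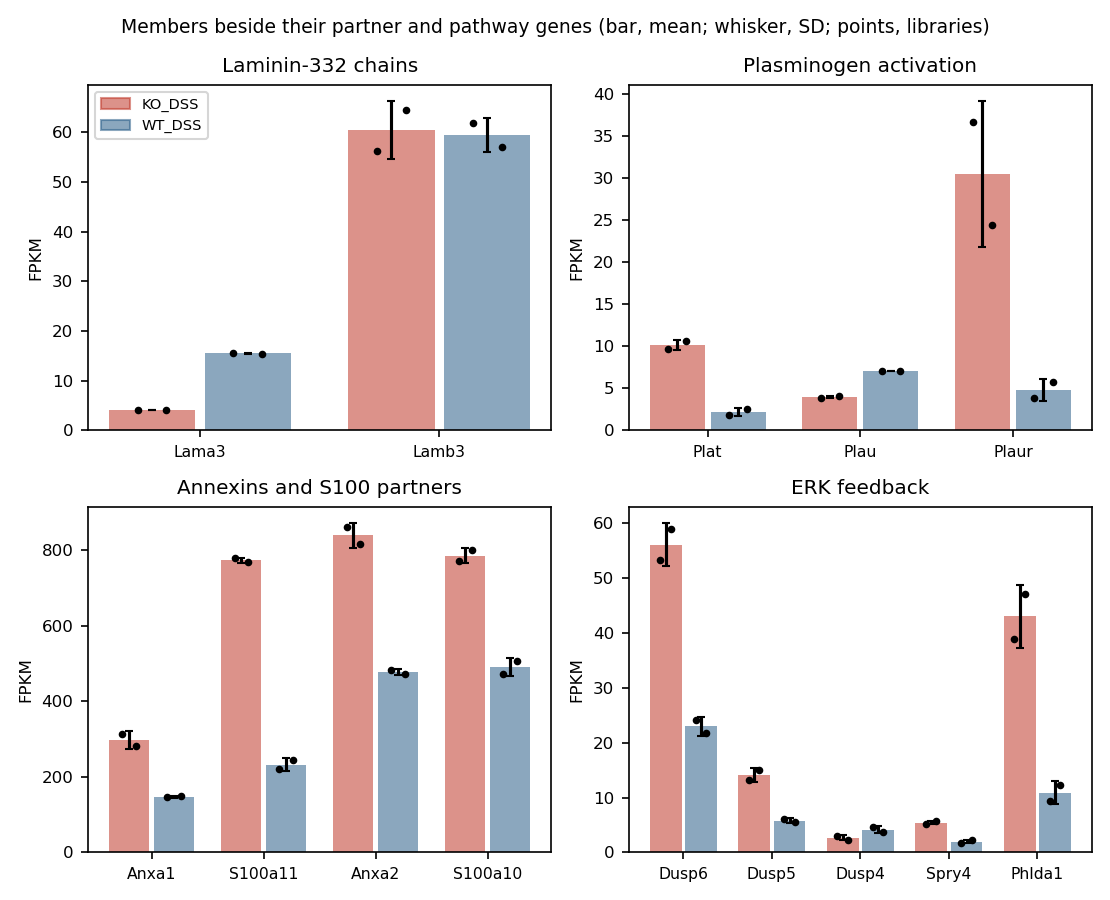
FPKM of members beside partner and pathway genes in KO_DSS (left bar of each pair) and WT_DSS (right bar), as means with SD (n = 2 each) and points for libraries. Lama3 is low in knockout while Lamb3 overlaps, Plat and Plaur are high while Plau is low, both annexins are high with their S100 partners, and Dusp6 is high while Dusp4 is not.

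Set side by side, direct YAP targets had 1 of 7 tested members called higher and 2 called lower, with a median log2 fold change of -0.21. The other injury genes had 9 of 26 called higher and 6 called lower, with a median of 0.16. In the background 23.0% of genes were higher, beside 14.3% of direct targets and 34.6% of other injury genes. In the background 20.8% were lower, beside 28.6% and 23.1%. The difference between the classes was not tested. The medians depend on the libraries. That of direct targets was -0.34 without wild-type replicate 1 and -0.09 without wild-type replicate 2, and that of other injury genes was 0.29 without knockout replicate 1 and 0.08 without knockout replicate 2. With F3 moved to the injury class the medians were -0.10 and 0.12. By at least 1 on the log2 scale, 1 of 7 direct targets rose and 1 fell, while 6 of 26 other injury genes rose and 1 fell. At that cut 6.90% of all genes rose and 8.02% fell. Summed FPKM was 53.8 and 54.9 in knockout and 57.7 and 59.0 in wild type for direct targets, and 2057 and 1986 in knockout and 1474 and 1449 in wild type for other injury genes, of which annexins make up most.

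**Figure D5:**
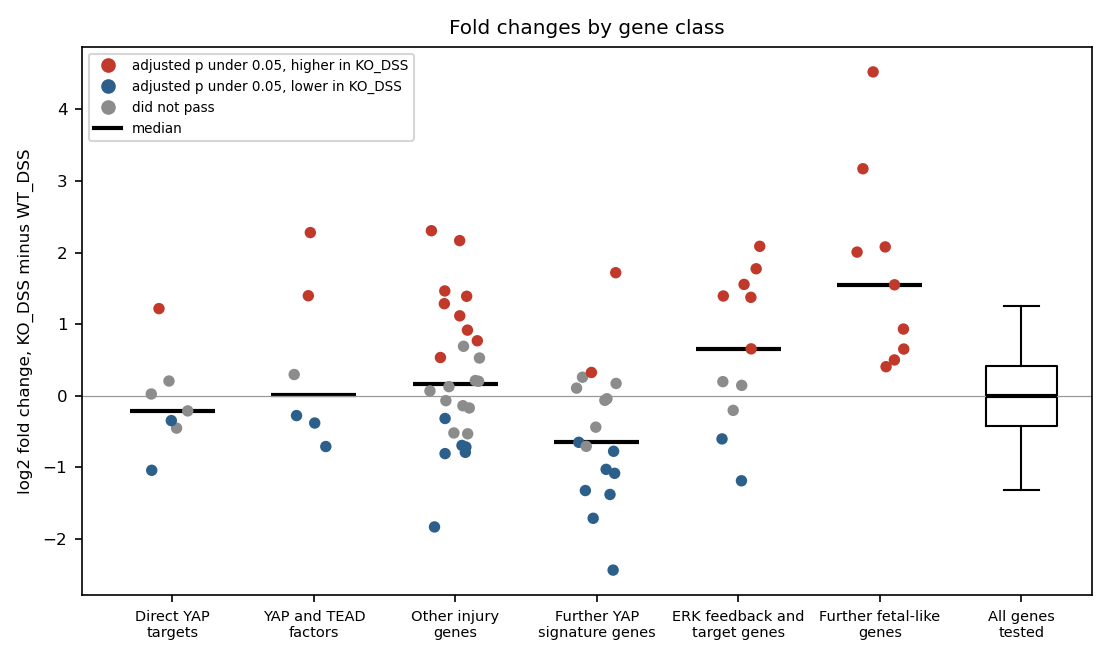
Log2 fold change, KO_DSS minus WT_DSS, of tested genes by class (points, coloured by call, black line at the median) beside all 13608 genes tested (box, quartiles, whiskers from the 5th to the 95th percentile). Direct YAP targets centre at -0.21, other injury genes at 0.16, further YAP signature genes at -0.65 and further fetal-like genes at 1.55. The classes were chosen with earlier results of these data known.

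Related genes outside the list were counted in the same way. These further lists were chosen with earlier results of these data known, so their counts and medians are description only. Of 17 further genes of published YAP signatures, 2 rose and 8 fell, 11.8% and 47.1% beside 23.0% and 20.8% of all genes, with a median log2 fold change of -0.65. The fallers were 6 without knockout replicate 1, 6 without wild-type replicate 2 and 6 with DESeq2. Crim1, a membrane protein that binds bone morphogenetic proteins, was at 2.87 and 2.72 FPKM in knockout and 15.8 and 16.7 FPKM in wild type (log2 fold change -2.44 ± 0.11, adjusted p = 6.96e-07). Nt5e, the ectonucleotidase CD73 that makes adenosine, fell by 1.09 and Asap1, an ARF GTPase activator, by 0.78 on the log2 scale. Birc5, the mitotic regulator survivin, rose by 1.72. Several of these genes are also expressed by stromal cells, whose markers had a median log2 fold change of -0.58, and their part was not tested. Of 9 further fetal-like genes, all 9 rose, with a median of 1.55, and 7 were called without wild-type replicate 2 and 7 with DESeq2. Sprr1a, a cornified envelope protein, was at 62.5 and 55.8 FPKM in knockout and 2.02 and 3.41 FPKM in wild type. Areg, an EGF receptor ligand, was at 51.4 and 55.5 FPKM in knockout and 19.8 and 19.4 FPKM in wild type, and Ly6a and Krt7 rose by 3.17 and 2.08 on the log2 scale.

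Upstream of YAP, the Hippo kinases and their regulators went both ways. Of 23 tested, 4 rose and 5 fell, 17.4% and 21.7% beside 23.0% and 20.8% of all genes, with a median log2 fold change of -0.16. The risers were 2 without knockout replicate 1, 2 without wild-type replicate 1 and 2 without wild-type replicate 2, or 1 with limma on log2(FPKM + 1), and the fallers 2 without wild-type replicate 1. The scaffolds Wwc1 and Wwc2, paralogs that activate the LATS kinases, went opposite ways. Wwc1 was at 20.1 and 21.0 FPKM in knockout and 12.9 and 12.3 FPKM in wild type (log2 fold change 0.81 ± 0.10, adjusted p = 0.000255). Wwc2 was at 2.72 and 2.81 FPKM in knockout and 7.52 and 8.73 FPKM in wild type (log2 fold change -1.45 ± 0.15, adjusted p = 8.68e-05). The atypical cadherin Fat1 fell by 0.41 and the LATS-binding protein Limd1 rose by 0.44 on the log2 scale. Nf2, the tumour suppressor merlin, was at 30.1 and 28.1 FPKM in knockout and 24.4 and 24.4 FPKM in wild type (log2 fold change 0.36 ± 0.09, adjusted p = 0.0124). The Nf2 call was lost without knockout replicate 1 (adjusted p = 0.0524), wild-type replicate 1 (0.0647) or wild-type replicate 2 (0.0552). Taok3, a kinase that activates the Hippo kinases, did not pass.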

How the data were processed

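RNA-seq was compared between 2 KO_DSS and 2 WT_DSS libraries grouped by the labels. The authors deposited, per library, gene identifiers, transcripts, lengths, expected counts and FPKM. Expected counts, per the file headers, are estimates, and 78.8% to 80.2% were exactly whole as deposited. FPKM as deposited is scaled to length and library total. The deposited lengths (unit other) entered no test. Per the submitters' processing notes Bowtie2, BWA and hg19 were used, with no role given. Because hg19 is not a mouse build, no coordinates come from the files. The program that estimated counts was not given in the sources used here. Per the labels' protocols, libraries were made from Trizol total RNA with a TruSeq kit.

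RefSeq (GRCm38.p6) gave symbols for 18820 of 18872 gene identifiers. Unlisted genes were taken as 0. Transcript lists of 600 genes differed between files, those of replicate 1 against replicate 2, and no tested member was among them. Rounded expected counts went into edgeR (4.0.16, under R 4.3.3) with filterByExpr, TMM factors and the two-sided quasi-likelihood test without a block, at an adjusted p under 0.05 over 13608 genes. The steps were tested on simulated data. A standard error is the size of the log2 fold change over the root of its F value. The biological coefficient of variation was 12.9%. Replicates differed beyond sampling noise (chi-square over degrees of freedom 2.95 in knockout and 2.18 in wild type), so none was merged. Alternatives used DESeq2 1.42.0, limma 3.58.1 on log2(FPKM + 1) or log2(FPKM + 0.1), other scaling, other filters, left-out libraries and the replicate block. Count ratio intervals are exact binomial (95%) and cover counting error only.

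The members, classes and lists were chosen with earlier results of these data known. Named genes are all members, Ezh2 and, of each further list, up to 4 called genes by p and the 2 most abundant. Itgb4, Stat6, Fos, Spry1 and Spred2 were named after their values were seen. The same holds for Epcam, Cdh1, Krt8, Krt19, S100a8, S100a9, Csf3r and Cxcr2, and for the fibroblast and smooth muscle markers named singly. Some genes of the lists are not reported here.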

Additional observations from a re-analysis of the deposited data

How the results depend on the processing

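Of 468 refits of single members over 12 alternatives, 422 kept direction and side of the threshold, 23 lost a call, 12 gained one and 11 changed sign. The sign changes were those of 4 members that passed in none of these fits. With a library left out, Ccn2 ranged from -0.142 to 0.168, Emp2 from -0.006 to 0.133, Ajuba from -0.049 to 0.421 and Tm4sf4 from -1.452 to 0.974, with the opposite sign for Tm4sf4 also at 0.487 without knockout replicate 1. Scaling moved all genes and with them Ccn2 (-0.079 with library totals alone, -0.079 and -0.089 with limma at pseudocounts 1 and 0.1) and Emp2 (-0.036, -0.036 and -0.038 in these fits).

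All genes called numbered 4379 with DESeq2, 6020 with library totals alone and 4610 to 5764 with a library left out, against 5950. With no filter on low counts Yap1, Tead3 and F3 were not called (adjusted p = 0.0793, 0.0533 and 0.0574). With TMM factors 52.5% of called genes were higher, with library totals alone 42.4% and with limma on log2(FPKM + 1) 43.7%, as the median of all genes moved to -0.103 and -0.084.

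Members called lower numbered 6 with DESeq2 and 6 to 9 with a library left out. Direct targets called lower numbered 1 with no filter, 1 with DESeq2, 1 with F3 in the injury class, 3 with library totals alone and 1 to 2 with a library left out. The median of direct targets was -0.32 with library totals alone, -0.10 without F3 and -0.34 to -0.09 with a library left out. The median of other injury genes was 0.06 with library totals alone, 0.05 and 0.06 with limma at pseudocounts 1 and 0.1, and 0.08 to 0.29 with a library left out. The cause was not tested.

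Replicate numbers are given no meaning in the labels. Deviations of same-numbered libraries correlated at 0.465 over 9672 genes with the same transcripts, from 2 pairs. With the replicate block 7403 genes were called, 15 members higher and 13 lower, direct targets 1 and 3 (median -0.21), other injury genes 11 and 7 (median 0.16). It added calls for Tead1 (adjusted p = 0.0196), Amotl2 (0.0112), Anxa3 (0.0046), Tm4sf1 (0.0408) and Itga2 (0.0189), and called 10 Hippo genes lower, against 5.

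Depth limits Ankrd1, Spp1, Tm4sf4 and Msln, which had at most 24 counts in a library.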
